A study of Mus musculus with 3 samples.

Results

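The genes described here move acid and base across kidney cells: the subunits of the vacuolar proton pump (V-ATPase), the carbonic anhydrases, the Slc4 bicarbonate transporters, the Slc26 anion exchangers and the ammonia-conducting Rh glycoproteins. They were chosen by name, as every gene whose platform symbol begins with Atp6v0 or Atp6v1 or is a numbered Car, Slc4a or Slc26a gene, *Rhbg* or *Rhcg*. This gave 57 of 18193 genes, measured by 114 probe sets, of which 28 genes had 1 probe set. A filter on dim signals kept 44 of the 57, against 11146 of all genes. Kidney RNA came from male C57BL/6J mice aged 16 weeks, 1 sample with uninephrectomy alone and 2 samples of a cardio-renal syndrome model, each on 1 array. All mice had lost 1 kidney 6 weeks before the other was taken. In the model, the abdominal aorta had also been constricted below the branching of the renal arteries, at week 0, and the kidney was removed at week 2; the design text describes a sham operation as the alternative to banding. The comparison asks what banding adds to the loss of a kidney. The labels do not say whether a sample is 1 mouse, so the spread between the cardio-renal samples may be technical.

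The kidney reclaims filtered bicarbonate in the proximal tubule and sets the final acid content of urine in the intercalated cells of the connecting tubule and collecting duct. Carbonic anhydrases interconvert carbon dioxide and bicarbonate, so that a proton can leave through one membrane and bicarbonate through the other. Type A intercalated cells secrete protons with an apical V-ATPase and return bicarbonate to blood through the exchanger encoded by *Slc4a1*, whereas type B cells secrete bicarbonate through pendrin, encoded by *Slc26a4*. FOXI1, a forkhead transcription factor, is required for intercalated cells to form.

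RefSeq promoter windows (GRCm38.p6) were matched for 39 of the 57 genes. The 250 bases before the start site are shown for 3 genes of intercalated cells that the results below return to: a pump subunit that lay at nearly the same distance from the control on both cardio-renal arrays, an ammonia channel that lay higher on both, and pendrin, which lay apart on 1 of them. Capitals mark the forkhead core TGTTTA or its reverse complement TAAACA. Each is written 5′ to 3′ on the gene's own strand.
*Atp6v1b1* (chr6:83742767-83743016, plus strand): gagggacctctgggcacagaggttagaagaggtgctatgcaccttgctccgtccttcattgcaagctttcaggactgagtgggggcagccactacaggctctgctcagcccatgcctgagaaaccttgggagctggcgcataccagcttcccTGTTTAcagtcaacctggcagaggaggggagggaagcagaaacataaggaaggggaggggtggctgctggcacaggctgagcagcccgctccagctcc
*Rhcg* (chr7:79617658-79617907, minus strand): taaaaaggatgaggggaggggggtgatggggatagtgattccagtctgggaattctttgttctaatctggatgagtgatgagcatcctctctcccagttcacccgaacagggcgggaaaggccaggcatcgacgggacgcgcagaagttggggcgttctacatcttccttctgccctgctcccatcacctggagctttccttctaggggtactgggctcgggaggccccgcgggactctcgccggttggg
*Slc26a4* (chr12:31559985-31560234, minus strand): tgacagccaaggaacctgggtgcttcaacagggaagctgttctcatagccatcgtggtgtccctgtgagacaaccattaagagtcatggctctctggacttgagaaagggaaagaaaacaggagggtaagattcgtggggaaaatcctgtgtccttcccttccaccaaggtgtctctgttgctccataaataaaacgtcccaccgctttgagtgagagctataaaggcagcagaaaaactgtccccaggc
The core was found in the *Atp6v1b1* window, where it begins 98 bases before the start site, and in neither of the other windows. It was present in 5 of the 39 matched genes (12.8%), namely *Atp6v1b1*, *Car12*, *Car5a*, *Slc26a1* and *Slc4a10*, and in 13.5% of all 27025 genes with a window. A match is a description of the letters in this window and shows nothing about binding.

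Values are MAS5 signals, Affymetrix's linear summary of a probe set, and a gene was read from its probe set with the highest mean. Differences are log2(signal + 28.8) on a cardio-renal array minus the same on the uninephrectomy array. Median signals of the arrays lay between 100.1 and 105.9. The SD of log2 differences over all kept genes was 0.32 between the cardio-renal arrays, 0.32 between array 1 and the uninephrectomy array and 0.24 for array 2. Array 1 stood apart for sex-biased kidney genes: the summed signal of 10 male-biased genes was 148600 with uninephrectomy alone, 81750 on array 1 and 157100 on array 2, and that of 4 female-biased genes was 8725, 18290 and 9319. All 10 male-biased genes were lower on array 1 than with uninephrectomy alone, with a median log2 difference of -1.16 against 0.04 on array 2; the most distant, *Slco1a1*, an organic anion transporter, read 6161, 22.5 and 6064. Of the female-biased genes, 3 were higher on both cardio-renal arrays, while *Slc22a7* went the other way, at 3985, 459.6 and 3124. The summed signal of 11 heart and skeletal muscle markers was 459, 2077 and 1519. Proximal tubule, thick ascending limb, principal cell and podocyte markers were present on every array, with medians of their log2 differences, taken per array, between -0.19 and 0.10.

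Over the 44 kept acid-base genes, the median difference from the uninephrectomy array was near 0, and no gene passed the test. The median log2 difference was -0.0064 on array 1 and -0.0017 on array 2, beside 0.0084 and -0.0028 over all genes. Within 0.25 of the control on both arrays lay 23 of 44 (52.3%), against 6561 of 11146 genes (58.9%). The SD of the differences was 0.37 on array 1 and 0.24 on array 2. With limma and Benjamini-Hochberg adjustment over all 11146 genes, 0 of 44 passed, against a background of 0% of all genes called. In simulated data this test recovered 1% of genes with a log2 change of 1, so 0 calls do not show that genes were unchanged. At an unadjusted limma p under 0.05 there were 5 of 44, against 2.51% of all genes: *Car3*, *Car5a*, *Rhcg*, *Slc4a1* and *Slc26a7*. This count ran from 2 to 5 over 10 settings: in 5 of them *Slc4a1* had a p above the threshold, as had *Slc26a7* in 2 of the 8 that tested it and *Rhcg*, at 0.0522, without the trend. At least 1.5-fold higher on both cardio-renal arrays were 2 of 44 (*Car3* and *Car5a*; background 0.511%), and at least 1.5-fold lower on both were 0 of 44 (background 0.35%). *Car5a* and *Atp6v1g2* were under the filter with uninephrectomy alone and were kept through their cardio-renal values, so that *Car5a* supports neither count. Among the 42 genes at or above the filter on the uninephrectomy array as well, the counts were 4 and 1. Over all 10962 genes that met this condition, 247 had an unadjusted limma p under 0.05 and 28 were at least 1.5-fold higher on both. Higher on both by any amount were 10 of 44 (22.7%, against a background of 30.6%), lower on both 12 of 44 (27.3%, against 29.8%), and 22 had opposite signs. Among the 42 genes at or above the filter on the uninephrectomy array as well, 8 were higher on both and 12 lower. Over all 10962 such genes these counts were 3252 and 3316. Both differences share the single uninephrectomy array, so a common sign can come from that array alone. The cardio-renal arrays themselves differed by at least 1.5-fold in 1 of the 44 genes, *Atp6v0a1*, against 5.64% of all genes. Because tissue was homogenised whole, fewer cells of a type and less RNA per cell cannot be told apart in any of these values.

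**Figure D1:**
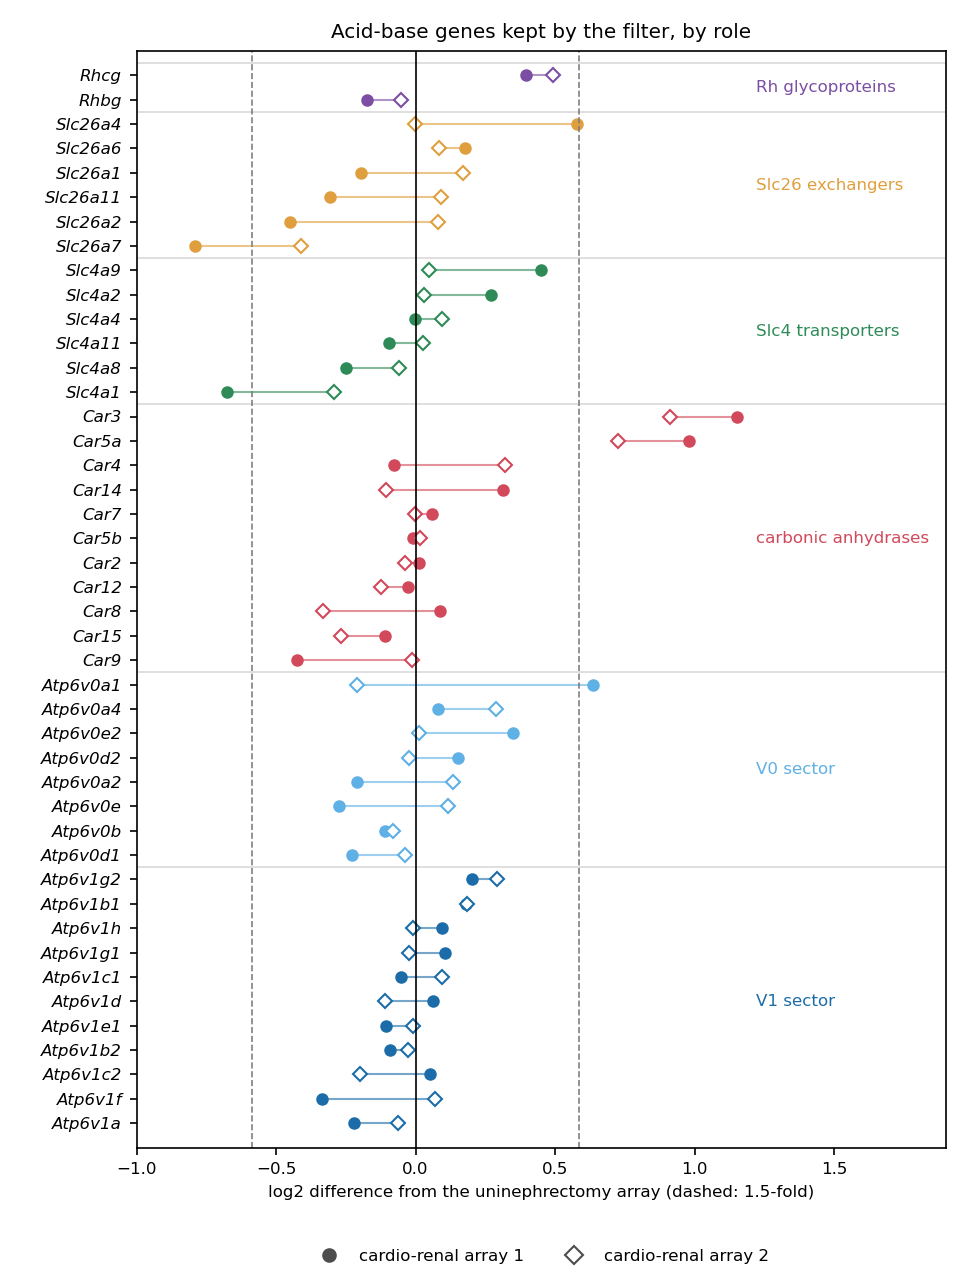
Log2 difference of each of the 44 kept genes from the uninephrectomy array, on cardio-renal array 1 (filled circles) and array 2 (open diamonds), grouped by role, with dashed lines at 1.5-fold. *Car3* and *Car5a* are the genes beyond the line on both arrays, and the V-ATPase subunits gather around 0.

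The V-ATPase is built from a cytosolic V1 sector, which hydrolyses ATP, and a membrane V0 sector, which carries the protons. Its 19 kept subunits had mean log2 differences from -0.14 to 0.25. Higher on both arrays were 4 (21.1%, against 30.6% of all genes), lower on both 5 (26.3%, against 29.8%), and 10 had opposite signs. Of the 4, *Atp6v1g2* was kept only through its cardio-renal values. Among the other 18 subunits, 3 were higher on both and 5 lower, against 3252 and 3316 of all 10962 genes at or above the filter on the uninephrectomy array as well. In the V1 sector, the medians over 11 genes were 0.05 on array 1 and -0.01 on array 2. The catalytic subunit gene *Atp6v1a* had signals of 10000 with uninephrectomy alone, 8583 on array 1 and 9579 on array 2. The B subunit exists in a kidney and inner ear form, *Atp6v1b1*, and a widely expressed form, *Atp6v1b2*. *Atp6v1b1* had signals of 1391, 1579 and 1586, and its log2 difference averaged 0.18 ± 0.0042 (SD, n = 2). *Atp6v1b2* had signals of 5454, 5121 and 5352, at -0.06 ± 0.04. The pair thus lay on opposite sides of the control on both arrays, by amounts far under 1.5-fold, with unadjusted limma p of 0.283 and 0.735 (adjusted p of 0.9998 for each); the difference between the forms was not tested. The forkhead core shown above lies in the *Atp6v1b1* window, and its relation to these values was not tested.

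Of the other V1 genes, *Atp6v1g2*, a G subunit known from neurons, had signals of 87.8, 105.4 and 114, near the filter. *Atp6v1e2*, known from testis, was too dim to keep, at 95.1, 60.3 and 55.5. The remaining 7 kept genes (*Atp6v1c1*, *Atp6v1c2*, *Atp6v1d*, *Atp6v1e1*, *Atp6v1f*, *Atp6v1g1* and *Atp6v1h*), the stalk and regulatory subunits, had mean log2 differences between -0.13 and 0.04.

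In the V0 sector, the medians over 8 genes were -0.02 on array 1 and -0.0053 on array 2. The large a subunit, which guides protons through the membrane and directs the pump to a membrane, has several forms. *Atp6v0a4*, the form of intercalated cells, had signals of 1795, 1898 and 2196, at 0.18 ± 0.15 (SD, n = 2). *Atp6v0a1* had signals of 151.3, 251 and 126.9, so that array 1 lay 0.64 higher and array 2 lay at -0.21. Its other 3 probe sets were all under the filter, and array 1 was the highest of the arrays on 1 of them. *Atp6v0a2*, found in the Golgi and endosomes, had signals of 711.7, 611.8 and 784.2 on the probe set used, and array 1 lay above the control on its other 2 probe sets.

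The d subunit links the sectors, and *Atp6v0d1* is its general form and *Atp6v0d2* a form of intercalated cells and osteoclasts. *Atp6v0d1* had signals of 5005, 4266 and 4879, at -0.13 ± 0.14. *Atp6v0d2* had signals of 1579, 1756 and 1554, with opposite signs on the cardio-renal arrays. *Atp6v0b*, a proton-carrying ring subunit, had signals of 3051, 2824 and 2882, and of its other 2 probe sets 1 was lower on both arrays and 1 higher on both. The small e subunits *Atp6v0e* and *Atp6v0e2* had signals of 8621, 7131 and 9340, and of 947.1, 1213 and 955.3. The mean log2 difference was larger than its SD in 2 of the 8 V0 genes, *Atp6v0a4* and *Atp6v0b*. That SD holds only the spread between the cardio-renal arrays. It leaves out the error of the single uninephrectomy array, so it does not gauge a distance from the control.

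Carbonic anhydrases held the largest mean differences of the kept set, in *Car3* and in *Car5a*, which was kept only through its cardio-renal values. The cytosolic *Car2* was level, and the membrane-bound *Car4* and *Car14* had opposite signs on the cardio-renal arrays. *Car3*, a cytosolic isoform of low catalytic activity known from fat, skeletal muscle and liver, had signals of 3702 with uninephrectomy alone, 8260 on array 1 and 6995 on array 2. Both cardio-renal arrays lay above the control, by 1.15 and 0.91 on the log2 scale, a mean of 1.03 ± 0.17 (SD, n = 2). The limma p was 0.000612 unadjusted and 0.758 adjusted, and the adjusted p ran from 0.452 to 1 over 10 settings. *Car3* had 3 other probe sets, of which the brightest read 620.1, 1420 and 1082 and the others 26.8, 73.6 and 61.7, and 1.74, 48.6 and 17.3. Every probe set of the gene was thus lower with uninephrectomy alone, but those at 26.8 and 1.74 were under the filter.

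**Figure D2:**
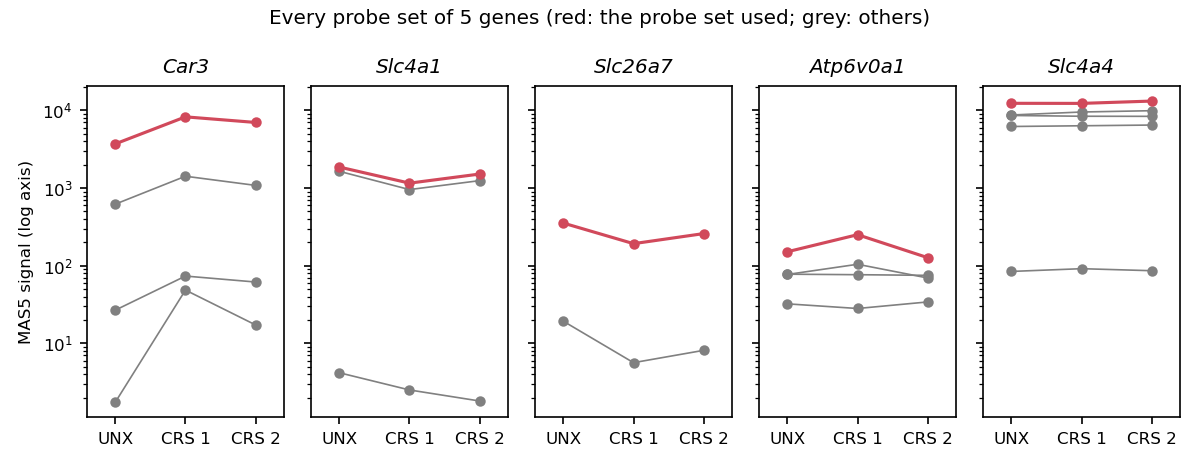
MAS5 signal, on a log axis, of every probe set of 5 genes on the uninephrectomy array (UNX) and cardio-renal arrays 1 and 2 (CRS 1, CRS 2), with the probe set used in red and the others in grey. All 4 *Car3* probe sets are lowest, and all *Slc4a1* and *Slc26a7* probe sets highest, on the uninephrectomy array, while those of *Slc4a4* are level. The dimmest probe sets of *Car3*, *Slc4a1* and *Slc26a7* were under the filter.

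Markers of fat and muscle were read beside *Car3*. Without *Car3*, 6 of 8 adipocyte markers with a probe set were kept, *Adipoq* and *Retn* only through their cardio-renal values, and the summed signal over all 8 was 23610, 17860 and 23360. Over all 10962 genes at or above the filter on the uninephrectomy array as well, 3252 were higher on both arrays and 3316 lower. Of the 4 adipocyte markers that met this condition, 1 was higher on both, 1 was lower on both and 2 had opposite signs. The last were *Fabp4*, at 3829, 4226 and 3424, and *Pnpla2*, at 874.5, 801.6 and 977.8. *Adipoq* had signals of 88.6, 101.1 and 129.9. *Cidec*, at 7.72, 38.5 and 21.7, and *Lep*, at 1.01, 2.10 and 1.73, were too dim to keep. *Lpl*, which other kidney cells also express, had signals of 18580, 12340 and 18520 and makes up most of the sum. Among 11 muscle markers, the heart genes *Myh6* (9.93, 349.4 and 188.2), *Actc1* (72.7, 545 and 400) and *Myl2* (55.9, 336.8 and 257.1) were kept only through their cardio-renal values. *Mb*, myoglobin of heart and skeletal muscle, read 3.81, 226.4 and 174 and was not kept, and *Myh7*, also not kept, was lower on both arrays, at 66.9, 12.6 and 54.1. The skeletal muscle markers *Ckm*, at 117, 142.7 and 118.7, *Mylpf*, at 75.8, 101.4 and 102.7, and *Acta1*, at 38.4, 59.7 and 34.4, were not 1.5-fold higher on both. The part of these tissues in the *Car3* signal was not tested.

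*Car3* lies in a run of carbonic anhydrase genes in the order *Car13*, *Car1*, *Car3* and *Car2*, with no other protein-coding gene between them in the RefSeq table. *Car2*, the cytosolic enzyme of intercalated and proximal tubule cells, had signals of 13960, 14080 and 13600, and stood at -0.01 ± 0.04 (SD, n = 2). *Car1*, an enzyme of red cells and gut, had signals of 36.4, 45.8 and 58.5, and *Car13* of 50.5, 56.5 and 61.3, both too dim to keep. The neighbour that is bright enough to measure was thus level where *Car3* was 2.05-fold higher.

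*Car5a*, a mitochondrial isoform best known from liver, had signals of 83.2, 192.3 and 156.2, the first of them under the filter, averaging 0.85 ± 0.18 above the control (SD, n = 2). Its limma p was 0.0144 unadjusted and 0.9998 adjusted, and it had 1 probe set. The gene was dim: with an offset of 100 its mean log2 difference was 0.58, under 1.5-fold. *Car5b*, the other mitochondrial isoform, had signals of 555.4, 551.7 and 562.1, the most even values of any carbonic anhydrase kept.

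The membrane-bound isoforms act on bicarbonate in the tubule lumen. *Car4*, anchored to the apical and basolateral membrane of the proximal tubule, had signals of 5481, 5196 and 6858 and lay at -0.08 on array 1 and 0.32 on array 2, and its other probe set, at 3824, 3803 and 4873, followed the same order. *Car14* had signals of 2141, 2666 and 1990, the reverse order. *Car12*, of the distal nephron, had signals of 5030, 4933 and 4618, at -0.08 ± 0.07, while a dimmer probe set of the gene read 165.5, 397.5 and 189. *Car15*, a membrane-anchored isoform of mice that humans lack, had signals of 3398, 3149 and 2821, at -0.19 ± 0.11 (SD, n = 2). *Car9*, a target of hypoxia-inducible factor, had signals of 333.2, 241.2 and 329.8, low on array 1 alone. *Car7* and *Car8*, cytosolic members of which *Car8* lacks enzyme activity, had mean log2 differences of 0.03 and -0.12.

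Among Slc4 genes, the red cell and intercalated cell exchanger stood below the control and the main proximal tubule transporter was level. *Slc4a1* encodes AE1, the basolateral chloride-bicarbonate exchanger of type A intercalated cells. Its signals were 1865 with uninephrectomy alone, 1157 on array 1 and 1516 on array 2. Both cardio-renal arrays lay under the control, at -0.68 and -0.29, a mean of -0.48 ± 0.27 (SD, n = 2), with a limma p of 0.0419 unadjusted and 0.9998 adjusted. Its other bright probe set read 1644, 955.9 and 1247, in the same order.

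Erythroid transcripts were read beside *Slc4a1*, since red cell precursors also make AE1. Without *Slc4a1* and *Car1*, 7 erythroid markers had a probe set, with a summed signal of 544.5, 506.4 and 754.6. The 2 kept ones were higher on both cardio-renal arrays: *Hbb-b2* read 144.7, 200.4 and 278.6 and *Alas2* 215.7, 227.8 and 253.6. The alpha globin gene *Hba-a1*, at 49.9, 9.10 and 37.6, and the membrane proteins that mark the lineage, *Epb42* at 25.2, 12.9 and 19.7 and *Rhag* at 17.2, 1.01 and 12.5, were dim and followed the order of *Slc4a1*. *Ermap*, at 55.0, 36.3 and 73.0, and *Tspo2*, at 36.9, 18.9 and 79.6, were also dim but highest on array 2. The erythroid markers thus lay on both sides of the control, and the part of erythroid cells in the *Slc4a1* signal was not tested.

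*Slc4a4* encodes NBCe1, through which proximal tubule cells pass bicarbonate to blood, and had signals of 12340, 12310 and 13190. Its 3 other bright probe sets had log2 differences between -0.04 and 0.18 on either array. *Slc4a9*, a basolateral transporter of type B intercalated cells, had signals of 617.5, 854.7 and 638.8, so that array 1 lay 0.45 higher and array 2 0.05 higher. *Slc4a2*, the housekeeping anion exchanger AE2, had signals of 708.2, 859.9 and 723.3, also highest on array 1. *Slc4a8*, a sodium-driven exchanger of the collecting duct, had signals of 181.3, 147.9 and 172.8, and *Slc4a11* of 317.7, 295.4 and 324.4. None of these 5 genes had an unadjusted limma p under 0.05.

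Among the 6 kept Slc26 exchangers, array 1 lay further from the control than array 2 in all 6, as it did in 30 of the 44 acid-base genes and in 56.2% of all genes. *Slc26a7*, a chloride transporter in the basolateral membrane of type A intercalated cells of the outer medulla, had signals of 354.2, 192.4 and 259.4. It lay at -0.79 on array 1 and -0.41 on array 2, a mean of -0.60 ± 0.27 (SD, n = 2). Its limma p was 0.0458 unadjusted and 0.9998 adjusted. Its other probe set, at 19.3, 5.65 and 8.14, was under the filter. *Slc26a4* had signals of 2143, 3216 and 2142: array 1 lay 0.58 above the control and array 2 was level with it. *Slc26a2*, a sulfate transporter, had signals of 308.2, 217.9 and 327.3, and *Slc26a11* of 312.3, 246.9 and 334.2, both low on array 1 alone. *Slc26a1*, the basolateral sulfate and oxalate exchanger of the proximal tubule, had signals of 2030, 1767 and 2290. *Slc26a6*, the apical oxalate and chloride exchanger of the same cells, had signals of 181.3, 209 and 194, at 0.13 ± 0.07. The second probe sets of *Slc26a1* (1001, 1089 and 1003) and *Slc26a2* (171.4, 188.2 and 200.1) did not keep the low value on array 1. The genes that separated array 1 from the rest did so beside its sex-biased transcripts described above, and whether these are related was not tested.

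**Figure D3:**
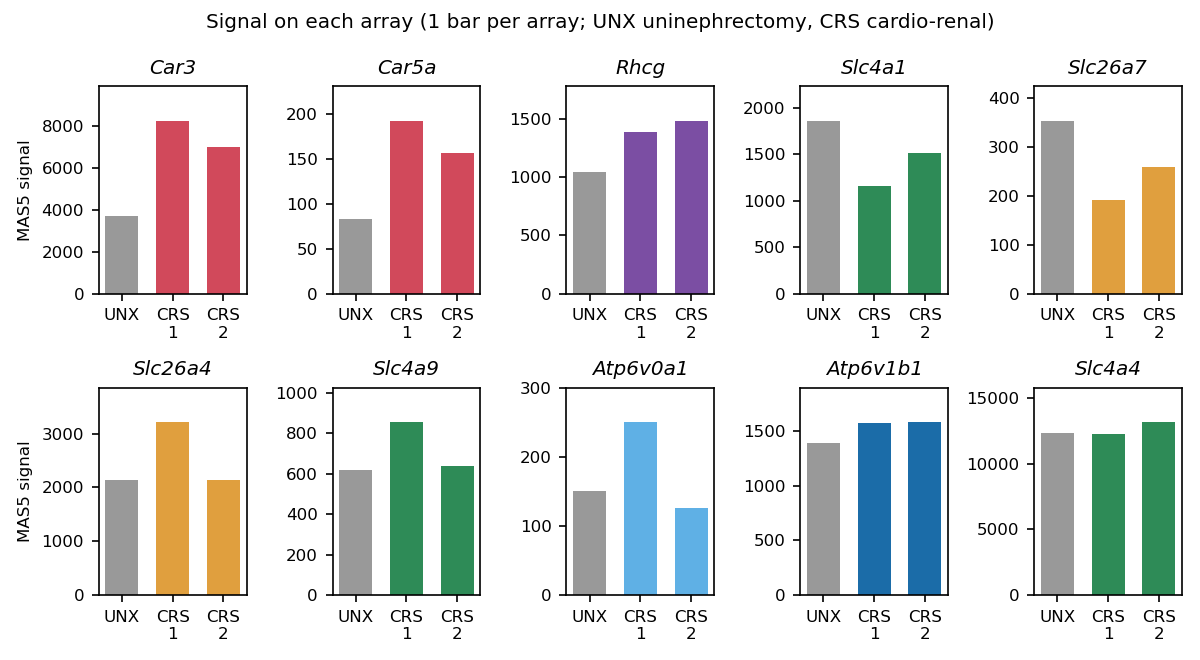
MAS5 signal of 10 acid-base genes on the uninephrectomy array (UNX, grey) and cardio-renal arrays 1 and 2 (CRS 1 and CRS 2, coloured by role), 1 bar per array on axes that start at 0. *Car3*, *Car5a* and *Rhcg* are higher and *Slc4a1* and *Slc26a7* lower on both cardio-renal arrays, *Slc26a4*, *Slc4a9* and *Atp6v0a1* are highest on array 1, and *Slc4a4* is level.

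The Rh glycoproteins conduct ammonia across the membranes of collecting duct cells, a route by which acid reaches urine. *Rhcg*, found on the apical and basolateral membranes, had signals of 1048, 1388 and 1487. Both cardio-renal arrays lay above the control by similar amounts, 0.40 and 0.49, a mean of 0.44 ± 0.07 (SD, n = 2). The limma p was 0.0272 unadjusted and 0.9998 adjusted, and 0.0522 unadjusted without the trend. *Rhcg* had 1 probe set, so with all arrays used only the offset and the scaling could move its log2 difference, which ran from 0.42 to 0.45. It was 0.49 without array 1 and 0.40 without array 2. *Rhbg*, its basolateral relative, had signals of 839.8, 741.5 and 808.6, at -0.11 ± 0.09.

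The 13 genes too dim to keep were *Atp6v1e2*, *Car1*, *Car6*, *Car10*, *Car11*, *Car13*, *Slc4a3*, *Slc4a5*, *Slc4a10*, *Slc26a3*, *Slc26a5*, *Slc26a8* and *Slc26a10*. Their signals ran from 3.35 to 108.2 with uninephrectomy alone, from 10.1 to 93.1 on array 1 and from 11.1 to 85.1 on array 2, around or under the arrays' medians, and no fold change was read from them.

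Other genes of acid-base handling were grouped in 4 lists, and 0 of their 49 kept genes passed limma's adjusted p. Over all kept genes, 30.6% were higher on both arrays and 29.8% lower. In ammonia formation and glutamine uptake, 10 genes were kept, 3 higher on both arrays (30%) and 3 lower (30%), with a median log2 difference of 0.03. *Slc38a3*, the basolateral glutamine transporter SNAT3 of the proximal tubule, had signals of 309.4, 1050 and 537.6, a mean of 1.21 ± 0.66 (SD, n = 2). Its limma p was 0.00873 unadjusted and 0.9998 adjusted. Its second probe set, dim and under the filter, was lower on both arrays, at 42.4, 35.3 and 12.1. *Pck1*, the enzyme that turns the carbon of glutamine towards glucose, had signals of 6364, 12850 and 10150, at 0.84 ± 0.24, and its second probe set read 1309, 3728 and 2918. Both genes were at least 1.5-fold higher on both arrays, which makes 2 of the 10 kept genes of this list, against 0.511% of all genes. Other enzymes of the route lay near the control: *Glud1*, glutamate dehydrogenase, had signals of 7625, 7374 and 7078, and *Mdh1* of 26220, 25100 and 25740.

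Intercalated cell identity and sensing genes gave 14 kept genes, of which *P2ry14* and *Stap1* were kept only through their cardio-renal values. Of the other 12, 8 were higher on both arrays and 1 was lower. Among all 10962 genes at or above the filter on the uninephrectomy array as well, 3252 were higher on both and 3316 lower. *Adcy10*, the soluble adenylyl cyclase that senses bicarbonate, was too dim to keep and lower on both, at 58.1, 42.4 and 34.1. *Hmx2*, a homeobox gene of these cells, had signals of 112, 228 and 154.2, at 0.62 ± 0.35 (SD, n = 2). *P2ry14*, a receptor for UDP-glucose, had signals of 84.7, 128.9 and 114.3, and *Hepacam2* 575.8, 828.8 and 675.2. *Foxi1*, singled out after its values were seen, had signals of 548, 757.3 and 605.4, at 0.29 ± 0.22. The gene on the lower side was *Aqp6*, an intracellular water channel of type A cells, with signals of 3423, 1714 and 2339, at -0.76 ± 0.31. Its limma p was 0.00692 unadjusted and 0.9998 adjusted. Its other 2 bright probe sets, at 639.8, 293.5 and 462.3 and at 365.1, 168.2 and 253.8, kept this order. Not all genes of type A cells did so: *Kit* read 408.4, 453.7 and 630.1 and *Dmrt2* 254.7, 261.2 and 262, both higher on both arrays.

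**Figure D4:**
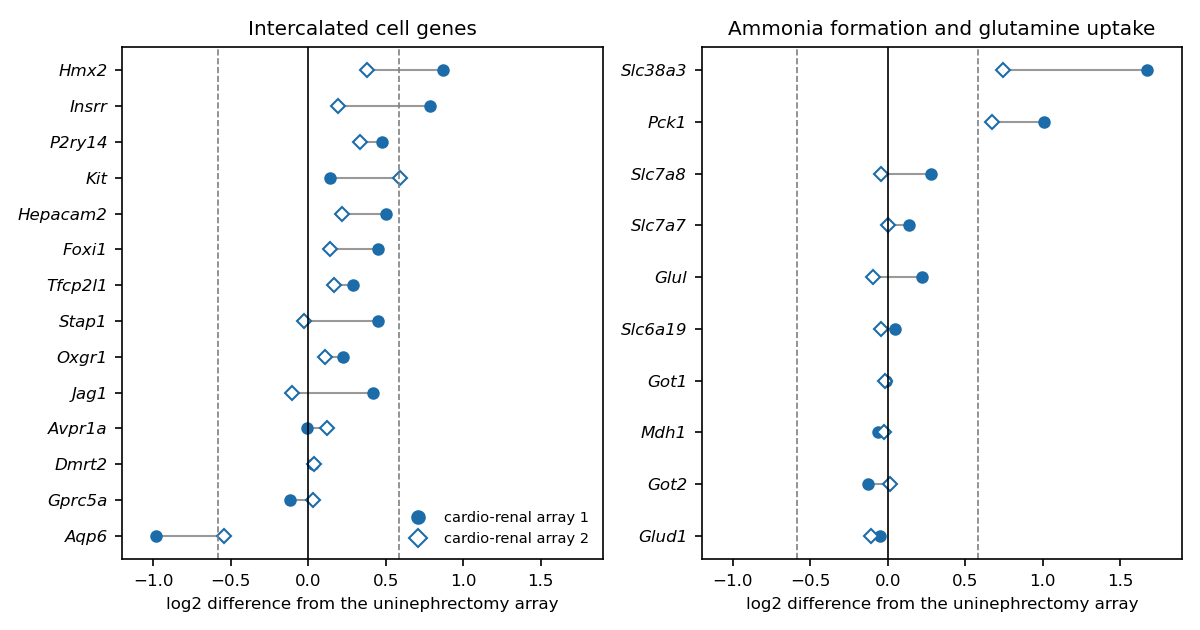
Log2 difference from the uninephrectomy array of the kept genes of 2 lists, intercalated cell genes (left) and ammonia formation and glutamine uptake (right), on cardio-renal array 1 (filled circles) and array 2 (open diamonds), with dashed lines at 1.5-fold. *Aqp6* lies apart on the lower side, *Slc38a3* and *Pck1* beyond the line on the higher side, and most of the intercalated cell genes right of 0.

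The V-ATPase partners and assembly factors had 12 kept genes, with a median of 0.04. Higher on both arrays were 5 (41.7%, against 30.6% of all genes) and lower 2 (16.7%, against 29.8%). *Dmxl1*, a regulator of pump assembly, had signals of 1808, 2601 and 2005, and *Tmem199*, an assembly factor of the membrane sector, had 1031, 871.1 and 888.8. *Ccdc115*, its assembly partner, read 367.1, 411.9 and 408.8, and *Dmxl2* 2853, 2599 and 2527. Other acid-base and chloride partners had 13 kept genes, 4 higher on both (30.8%) and 3 lower (23.1%), with a median of 0.02. *Kcnj16*, a basolateral potassium channel subunit, read 5344, 6114 and 5925, *Kcnk5*, a potassium channel of the proximal tubule, 3078, 2584 and 2782, *Bsnd*, the chloride channel subunit barttin, 246.5, 316.9 and 271.4, and *Slc9a2*, a sodium-proton exchanger, 530.4, 577.1 and 630. All 25 kept genes of these last 2 lists lay within 1.5-fold of the control on both arrays.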

How the data were processed

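Kidney RNA (250 ng per sample) was labelled with a 3′ kit and hybridised to 1 single-colour Affymetrix array per sample, per the labels' protocols. The authors deposited intensities, the linear MAS5 signal of 45101 probe sets, made with MAS5 per the submitters' processing notes; its version is not given. Each array's mean after trimming 2% at each end was 500, so the values were used as scaled. The mismatch probes that MAS5 subtracts add noise to dim signals. The number of arrays limits the precision. A 3′ kit does not separate isoforms that share their end.

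Probe sets were named from the platform annotation, with symbols updated through Entrez IDs in RefSeq's GRCm38.p6 table: 34945 had 1 symbol, 932 several, 9160 were unnamed here and 64 were controls, left out. Each gene was read from its probe set with the highest mean. Signals became log2(signal + 28.8), an offset set at the arrays' median 25th percentile, and genes with a mean of at least 7.01, the median of all probe sets, were kept. Fold changes on this scale understate those of dim genes. Limma 3.58.1 (R 4.3.3, lmFit and eBayes with a trend) was fitted to the 3 arrays as a two-sided test. It was adjusted by Benjamini-Hochberg over all kept genes with a threshold of 0.05. In 10 simulated data sets with noise from the cardio-renal pair, the adjusted p recovered 1% of genes changed by 1 on the log2 scale. It recovered 36.6% of genes changed by 2. With 1 residual degree of freedom, the spread of the uninephrectomy group is taken from the cardio-renal pair.

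The members and lists were chosen with earlier results of these data known. Members were named in full if kept Slc4, Slc26 or Rh genes, if at least 1.5-fold from the control on both cardio-renal arrays or apart between them, or if among the 4 of their role with the largest smaller difference of one sign; the last rule also named up to 4 genes per other list. Other values were chosen after being seen. Marker lists for macrophages, osteoclasts and urothelium were also read. Alternatives were the offset, filter, scaling, choice of probe set, trend and each cardio-renal array left out.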

Additional observations from a re-analysis of the deposited data

How the results depend on the processing

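No paired analysis was possible because the labels number no replicates and only 1 uninephrectomy array exists. The count of acid-base genes past limma's adjusted p was 0 with every offset, filter, scaling, probe set choice and trend tried. It was 0 over all genes in these settings too, so it says nothing about stability. The count at an unadjusted p under 0.05 ran from 2, in the upper quartile of signals, to 5. Genes at least 1.5-fold higher on both arrays numbered 1 with an offset of 100 and 1 among the upper quartile of signals, where *Car5a* drops out. Without the filter, 16 of 57 were higher on both. The median log2 difference was 0.0037 without the filter and in the upper quartile, -0.0031 after quantile normalization and 0.0038 with a mean of probe sets. Leaving out a cardio-renal array, a value with no test, gave medians from -0.0064 to -0.0017, 21 genes higher and 23 lower with either array left out, and 0 to 2 genes at least 1.5-fold lower and 2 to 3 higher. Fewer arrays must then share a sign, which by itself raises these counts. Without array 1, 6 of the 27 genes named by the rule changed sign (*Atp6v0a1*, *Slc26a1*, *Slc26a11*, *Slc26a2*, *Slc26a4* and *Slc4a11*), without array 2 *Slc4a4* did, and with a mean of probe sets *Car12* and *Slc26a1* did. Macrophage and osteoclast markers had a median of -0.01 over 7 kept genes and urothelial markers of 0.28 over 3, of which *Upk1a* was kept only through its cardio-renal values. Signals near background limit *Car5a*, *Atp6v1g2* and the 13 dim genes.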
